A study of Arabidopsis thaliana with 21 samples.

Results

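GH3 genes encode enzymes of the acyl acid amido synthetase family, and the members described here, GH3.1, GH3.3 and WES1 (also called GH3.5), couple the auxin indole-3-acetic acid (IAA) to amino acids. The conjugates are stores or are broken down, so these enzymes lower free auxin. Their transcripts are themselves induced by auxin, through removal of Aux/IAA repressor proteins from auxin response factors, which makes the genes part of a feedback loop and common markers of auxin response. WES1 is also known to act on salicylic acid.

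The members were the probe sets that the array's annotation names as GH3.1, GH3.3 or WES1 alone, which gave 1 probe set for each gene and 3 of 22746 probe sets in all. GH3.1 is AT2G14960 (266611_at), GH3.3 is AT2G23170 (245076_at) and WES1 is AT4G27260 (253908_at). No filter on low values was used, so all 3 were tested in every comparison.

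RNA came from the hypocotyl, the stretch of stem between root and seed leaves, of Arabidopsis thaliana plants aged 2 weeks, and was measured on 21 Affymetrix arrays in 7 groups of 3. Wild-type Col-0 plants had the shoot tip removed and received IAA at 3 mg per mL, had it removed and received no hormone, kept it and received the auxin transport blocker NPA, also at 3 mg per mL, or were left intact. The max1, max2 and max3 mutants kept the shoot tip and received no hormone. MAX3 and MAX1 act in the synthesis of strigolactones, hormones that restrain shoot branching, and MAX2 is an F-box protein needed for the response to strigolactones and karrikins. Lanolin containing less than 10% ethanol was the carrier in all groups, the mutants and intact plants included. The labels name no alleles for the mutants and no site of application.

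Each array held RNA of 120 to 150 pooled hypocotyls collected after 24 h, and arrays with the same replicate number were treated together. The arrays had medians of 6.11 to 6.35, arrays of the same group correlated at 0.985 to 0.995, and 29.9% of probe sets stayed below 3.5 in every array. Of 6 shoot apex and 6 root markers only CLV3 and EXPA7 could be named, and they stayed at or below 2.05 and 1.88 in every array. Of 6 leaf markers RCA and LHCB4.2 could be named and lay between 11.7 and 13.9 in every array. None of the 6 vascular markers could be named. MAX1, MAX2 and MAX3 themselves were not analysed here. Values below are log2 values, ± after a mean is the SD of 3 arrays and ± after a difference is the SE of the model, and rose or fell means an adjusted p below 0.05 in limma.

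Decapitated plants given IAA were set against decapitated plants without it, to ask what auxin changed once the shoot tip was gone. All 3 GH3 transcripts rose, in a comparison in which 11.0% of all probe sets rose. GH3.3 stood at 14.43, 14.69 and 14.70 in decapitated plants given IAA, against 3.94, 3.91 and 4.83 in decapitated plants. The IAA arrays lay within 0.27 of each other and far above every other array of the series. The difference was 10.38 ± 0.85 (adjusted p = 3.1e-07), a fold of 1332, and it was the largest increase of any probe set. The decapitated arrays at 3.94 and 3.91 lay at the lowest level of this probe set, so the fold is measured in part against that level. WES1 stood at 12.04, 12.04 and 12.18 with IAA, against 6.06, 5.34 and 4.24 without it, with no overlap. Its difference of 6.87 ± 0.55 (adjusted p = 2.6e-07), a fold of 117, ranked 14 among the increases.

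GH3.1 stood at 5.26, 5.61 and 6.05 in decapitated plants given IAA, against 2.09, 2.07 and 2.09 in decapitated plants. The IAA arrays held the only values of this probe set that left its low level, since the 18 arrays of the other groups all lay between 2.02 and 2.12. The difference was 3.56 ± 0.12 (adjusted p = 9.6e-12), and its fold of 11.8 is measured against values near background. Log2 levels of different probe sets share no scale, so the 3 differences say nothing of which transcript was most abundant.

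**Figure D1:**
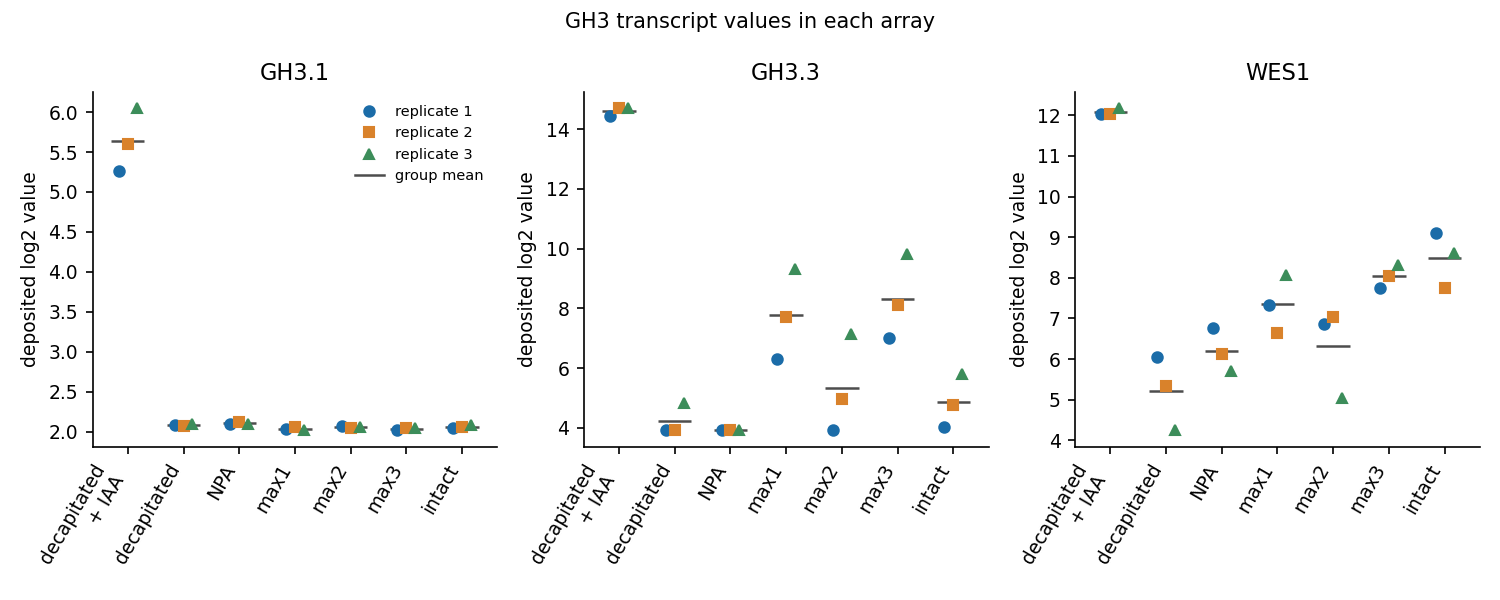
Deposited log2 value (vertical axis) of GH3.1, GH3.3 and WES1 in each of the 21 arrays, by group, with a symbol for each replicate number and a line at the group mean. The 3 IAA arrays stand above all others in each panel, at 5.26 to 6.05 for GH3.1, 14.43 to 14.70 for GH3.3 and 12.04 to 12.18 for WES1.

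Decapitated plants given IAA were also compared with intact plants, to see what differed once applied auxin had taken the place of the shoot tip. All 3 members were higher with IAA, in a comparison in which 3.89% of probe sets were higher. WES1 averaged 12.09 ± 0.08 in decapitated plants given IAA and 8.49 ± 0.69 in intact plants, a difference of 3.60 ± 0.55 (adjusted p = 0.00066). GH3.3 averaged 14.61 ± 0.15 with IAA and 4.87 ± 0.90 in intact plants, a difference of 9.74 ± 0.85 (adjusted p = 2.8e-06) and again the largest increase on the array. GH3.1 averaged 5.64 ± 0.39 with IAA and 2.06 ± 0.02 in intact plants (3.58 ± 0.12, adjusted p = 2.1e-11). This comparison and the one before it share the IAA arrays, and so are not independent.

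Markers of callus and lateral root founder cells also had higher means in the IAA group. Of 4 such markers LBD16, LBD29 and PUCHI could be named, and their means were 7.79, 2.97 and 5.28 with IAA, against 2.02, 2.02 and 2.04 in decapitated plants and 1.99, 2.01 and 2.02 in intact plants. The IAA arrays of LBD29 ran from 2.01 to 3.64, so the lowest was level with untreated plants. The part of these markers in the GH3 results was not tested. In pooled tissue, a change in how many cells hold a transcript and a change in its amount per cell cannot be told apart.

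Decapitated and intact plants were compared to see what the loss of the shoot tip, a source of auxin for the stem, changed. WES1 was the 1 member that fell, in a comparison in which 13.4% of probe sets fell. It stood at 6.06, 5.34 and 4.24 in decapitated plants, against 9.11, 7.74 and 8.61 in intact plants. All decapitated arrays lay below all intact arrays, and the difference was -3.27 ± 0.55 (adjusted p = 0.00032). GH3.3 stood at 3.94, 3.91 and 4.83 in decapitated plants, against 4.02, 4.77 and 5.81 in intact plants. The groups overlapped, and the difference of -0.64 ± 0.85 did not pass the test (adjusted p = 0.61). GH3.1 was at its low level in both groups (0.02 ± 0.12, adjusted p = 0.93).

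NPA-treated and intact plants were compared to ask which transcripts differed when auxin transport was blocked and the shoot tip remained. WES1 was again the 1 member that fell, among 13.9% of probe sets that fell. It stood at 6.77, 6.12 and 5.70 with NPA, against 9.11, 7.74 and 8.61 in intact plants, a difference of -2.29 ± 0.55 (adjusted p = 0.0053) without overlap. GH3.3 stood at 3.93, 3.92 and 3.92 with NPA, against 4.02, 4.77 and 5.81 in intact plants. The NPA arrays lay below every intact array with an SD of 0.01, but the difference of -0.94 ± 0.85 did not pass the test (adjusted p = 0.41). GH3.1 averaged 2.11 ± 0.01 with NPA and 2.06 ± 0.02 in intact plants and did not pass the test (adjusted p = 0.81). The decapitation and NPA comparisons share the intact arrays.

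The low values of GH3.3 piled up at 1 level. In 7 arrays from the decapitated, NPA, max2 and intact groups they lay between 3.91 and 4.02, and the next array stood at 4.77. No array lay below 3.91, and every GH3.3 difference that involves decapitated, NPA-treated, max2 or intact plants rests in part on arrays at that level. Replicate 1 of the intact plants (4.02) and of max2 (3.91) are among them. WES1 had no such pile, since its lowest array, a decapitated one at 4.24, was followed by a max2 array at 5.04.

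NPA-treated and decapitated plants were compared to see whether the treatments that interrupt auxin supply from the shoot tip differed. None of the 3 members passed the test, in a comparison in which 2.35% of probe sets did. WES1 stood at 6.77, 6.12 and 5.70 with NPA, against 6.06, 5.34 and 4.24 in decapitated plants, and the overlapping groups differed by 0.98 ± 0.55 (adjusted p = 0.49, unadjusted p = 0.096). Within replicate numbers 1, 2 and 3 the NPA array was higher by 0.71, 0.77 and 1.46. GH3.3 differed by -0.30 ± 0.85 and GH3.1 by 0.02 ± 0.12.

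**Figure D2:**
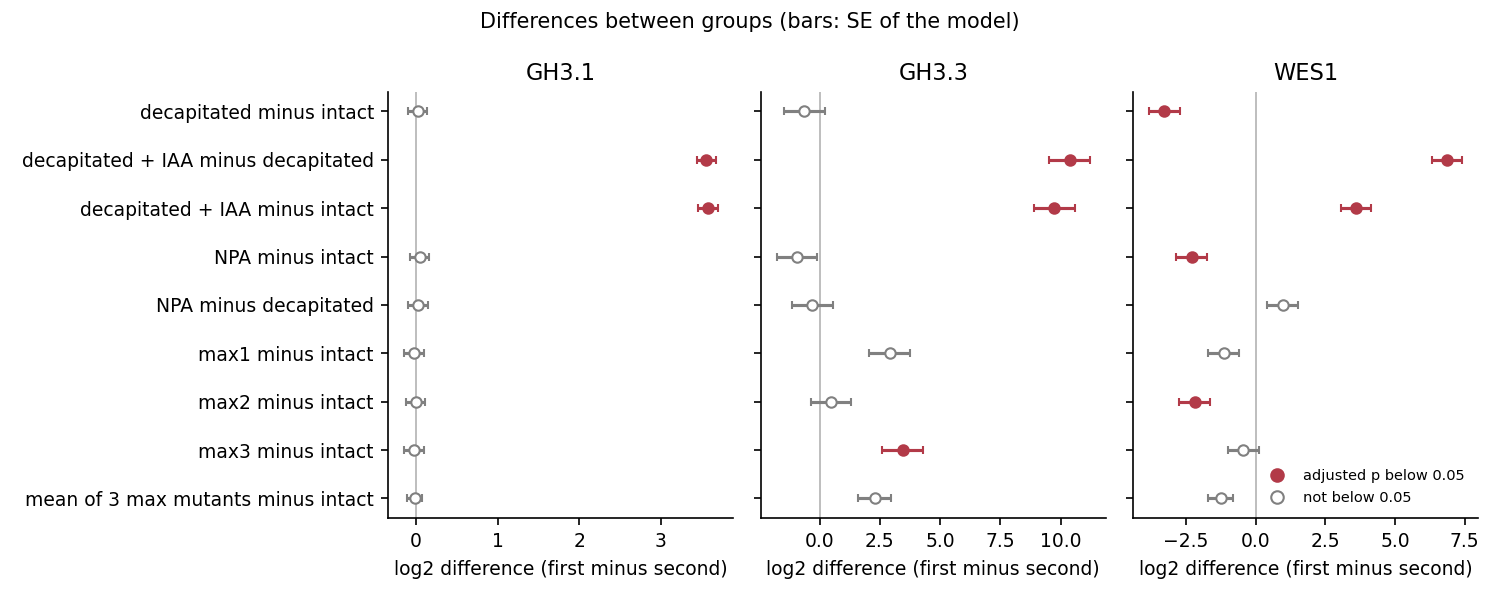
Log2 difference (horizontal axis) of each member in the 9 comparisons, as the first group minus the second, with the SE of the model as bars. GH3.1 leaves 0 only in the IAA comparisons. GH3.3 is positive with IAA and in every mutant comparison, and least so in max2. WES1 is positive with IAA and for NPA against decapitation. Against intact plants it is negative after decapitation, with NPA and in every mutant comparison. Filled points have an adjusted p below 0.05.

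The mutants were compared with intact wild-type plants to see whether loss of strigolactone synthesis or response changed these transcripts, and all mutant comparisons share the intact arrays. GH3.3 stood at 7.01, 8.11 and 9.83 in max3, against 4.02, 4.77 and 5.81 in intact plants. Every max3 array lay above every intact array, and the difference was 3.45 ± 0.85 (adjusted p = 0.0497), with 0.998% of probe sets higher and GH3.3 ranked 24 among the increases. In max1 it stood at 6.32, 7.72 and 9.30, also above every intact array. That difference was 2.91 ± 0.85 and missed the threshold (adjusted p = 0.075), as did all 3 members in max1, where 3.74% of probe sets were called. In max2 it stood at 3.91, 4.97 and 7.14, overlapping intact plants (0.47 ± 0.85, adjusted p = 0.94). The mean of the 3 mutants differed from intact plants by 2.28 ± 0.69 (adjusted p = 0.073), a comparison that called 5.28% of probe sets and none of the members.

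GH3.3 varied strongly inside these groups, with SDs of 1.49, 1.65 and 1.42 in max1, max2 and max3, and the arrays ordered by replicate number in the same way in each mutant. The array of number 3 was the highest and that of number 1 the lowest in max1, max2, max3 and intact plants. Of the sum of squares within groups, 64.7% lay between replicate numbers for GH3.3, against a median of 19.7% over all probe sets, 16.3% for WES1 and 16.7% for GH3.1, and 7.73% of probe sets had a larger share than GH3.3. Set against the intact array of the same number, max3 was higher by 2.99, 3.34 and 4.02 in numbers 1, 2 and 3, and max1 by 2.30, 2.95 and 3.49. The max2 differences were -0.11, 0.20 and 1.33.

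With the replicate number as a block in the model GH3.3 was called higher in max3 (3.45 ± 0.54, adjusted p = 0.0037, with 2.14% of probe sets higher), in max1 (2.91 ± 0.54, adjusted p = 0.0059, with 3.06% higher) and in the mean of the 3 mutants (2.28 ± 0.44, adjusted p = 0.0061, with 4.18% higher). With the block kept and 1 array left out at a time, the calls in max3, max1 and the mean of the mutants held in 6 of 6, 6 of 6 and 12 of 12 cases, with adjusted p up to 0.039. Without the block the call in max3 depended on single arrays. It was lost without intact replicate 1 (0.15), 2 (0.13) or 3 (0.059) and without max3 replicate 2 (0.10) or 3 (0.17), and in a fit of only these groups (0.20).

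**Figure D3:**
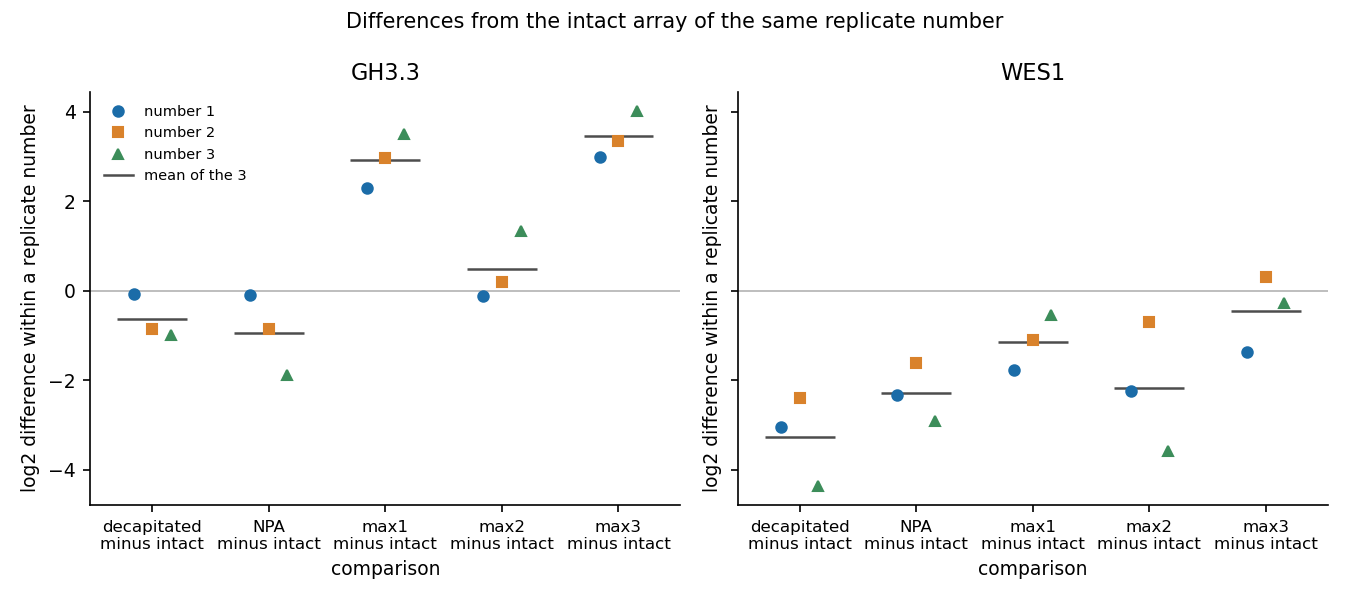
Log2 difference of GH3.3 and WES1 from the intact array of the same replicate number (vertical axis), for 5 groups, with a symbol for each number and a line at the mean of the 3. GH3.3 lies 2.30 to 4.02 above intact in all 6 max1 and max3 pairs, and WES1 lies below intact in all 12 pairs of decapitated, NPA, max1 and max2 plants.

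The response mutant was also set against the mean of the synthesis mutants, a comparison added after the data were seen. GH3.3 averaged 5.34 in max2 and 8.05 over max1 and max3, a difference of -2.71 ± 0.73 that did not pass the test over all probe sets (adjusted p = 0.37), of which 0.171% were called. With the replicate block it was lower in max2 (-2.71 ± 0.47, adjusted p = 0.033), as were 0.119% of probe sets. Against max3 alone, also added after the data were seen, GH3.3 in max2 differed by -2.98 ± 0.85 (adjusted p = 0.29) and was called lower with the block (-2.98 ± 0.54, adjusted p = 0.031), with 0.321% of probe sets lower. WES1 differed by -1.39 ± 0.48 (adjusted p = 0.76, and 0.50 with the block), and GH3.1 by 0.02 ± 0.10.

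WES1 passed the test in another mutant than GH3.3. In max2 it stood at 6.86, 7.03 and 5.04, against 9.11, 7.74 and 8.61 in intact plants. The groups did not overlap, and WES1 was the 1 member that was lower (-2.18 ± 0.55, adjusted p = 0.044), with 1.47% of probe sets lower. This call rested on single arrays, since it was lost without intact replicate 1 (0.16) or 3 (0.13), without max2 replicate 1 (0.053) or 3 (0.17), and in a fit of only these groups (0.33). In max1 it stood at 7.34, 6.64 and 8.07 (-1.14 ± 0.55, adjusted p = 0.34), with differences from the intact array of the same number of -1.77, -1.10 and -0.54, and in max3 at 7.75, 8.05 and 8.33 (-0.44 ± 0.55, adjusted p = 0.69), in both cases overlapping intact plants. The mean of the mutants differed by -1.25 ± 0.45 (adjusted p = 0.14). The difference between the responses of GH3.3 and WES1 was not tested. GH3.1 stayed between 2.02 and 2.07 in all 9 mutant arrays.

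The 7 groups fell in a different order for each gene. For GH3.3 the means were 14.61 with IAA, 8.32 in max3, 7.78 in max1, 5.34 in max2, 4.87 in intact, 4.23 in decapitated and 3.93 in NPA-treated plants. Of the 6 pairs of neighbours only the first passed the test, as IAA-treated plants stood 6.29 ± 0.85 above max3 (adjusted p = 0.0002) in a comparison with 5.68% of probe sets higher. The others differed by 0.30 to 2.44, with adjusted p of at least 0.61. Some pairs further apart also passed. GH3.3 in decapitated plants differed by -4.09 ± 0.85 from max3 and -3.55 ± 0.85 from max1 (adjusted p = 0.0018 and 0.0046). In NPA-treated plants it differed by -4.39 from max3 and -3.86 from max1 (0.0010 and 0.0024). Neither treatment was called against max2 (0.32 and 0.19). The share of all probe sets called in these pairs is not given here. For WES1 the means were 12.09 with IAA, 8.49 in intact, 8.04 in max3, 7.35 in max1, 6.31 in max2, 6.20 in NPA-treated and 5.22 in decapitated plants. Here too only the first step between neighbours, of 3.60 between IAA-treated and intact plants, passed the test, and the steps below it were 0.11 to 1.04. Further apart, WES1 in decapitated plants differed by -2.83 from max3 and -2.13 from max1 (adjusted p = 0.0012 and 0.0081). With NPA it differed by -1.84 from max3 (adjusted p = 0.016) and was not called against max1 (0.098). Intact plants thus ranked 2 for WES1 and 5 for GH3.3. For GH3.1 the first step was 3.53 ± 0.12, from IAA-treated to NPA-treated plants (adjusted p = 1e-11, with 13.6% of probe sets higher), and the 6 groups below it lay within 0.07 of each other.

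Of 9 further GH3 genes of the family, GH3.9 and GH3.17 could be named and followed. GH3.9, which has a known part in primary root growth, had called differences of the opposite sign to those of WES1. It stood at 6.11, 6.02 and 4.72 in decapitated plants and at 6.09, 6.21 and 4.46 with NPA, against 4.21, 3.54 and 4.26 in intact plants. It rose after decapitation (1.61 ± 0.43, adjusted p = 0.011) and with NPA (1.58 ± 0.43, adjusted p = 0.012), and in both comparisons all treated arrays lay above all intact ones. With IAA it stood at 3.302, 3.289 and 3.294, and fell against decapitated plants by 2.32 (SE 0.43, adjusted p = 0.00094).

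The increases of GH3.9 were lost in fits of only the groups compared (adjusted p = 0.071 for decapitation and 0.12 for NPA), and the first also without decapitated replicate 1 or intact replicate 2 (up to 0.054), the second without intact replicate 2 or NPA replicate 1 or 2 (up to 0.064). In the mutants its means were 3.26 in max1, 2.58 in max2 and 3.01 in max3, against 4.01 in intact plants, and no difference passed the test (adjusted p from 0.099 to 0.41). GH3.17, whose enzyme favours glutamate as the amino acid, kept means between 9.20 and 9.76 in the 7 groups and was not called in any of the 9 comparisons.

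**Figure D4:**
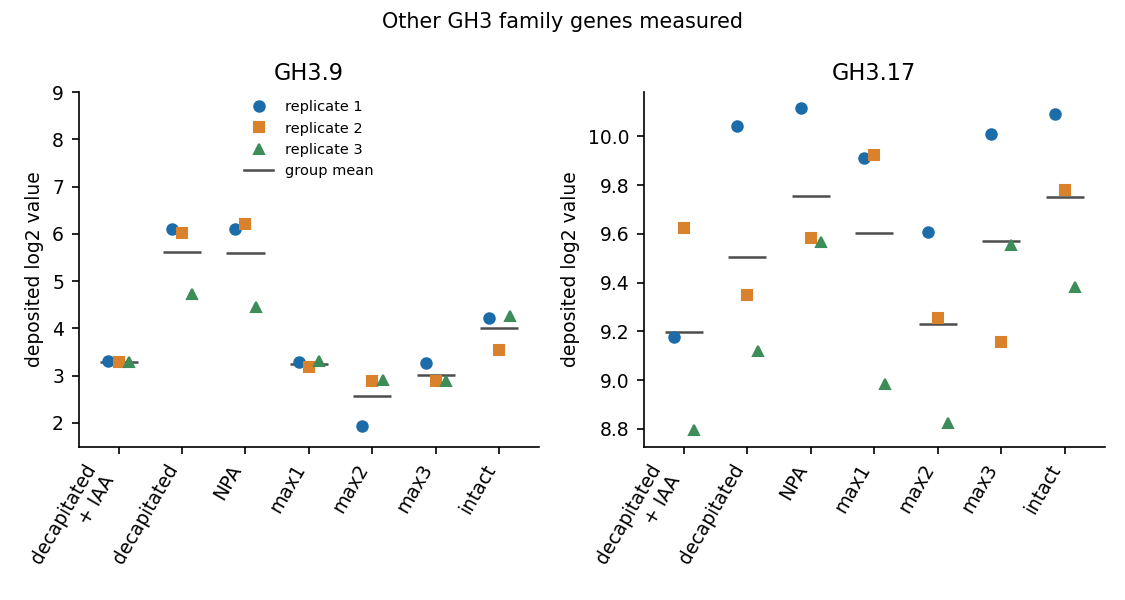
Deposited log2 value (vertical axis) of GH3.9 and GH3.17 in each of the 21 arrays, by group, with a symbol for each replicate number and a line at the group mean; the panels have different ranges. GH3.9 is highest in decapitated and NPA-treated plants, with means of 5.62 and 5.59, and GH3.17 shows means of 9.20 to 9.76.

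Genes of other steps in auxin handling were followed from fixed lists. Of 14 further genes of auxin inactivation and conjugate release 3 could be followed. IAGLU (AT4G15550), a glucosyltransferase that attaches glucose to IAA, rose by 1.34 after decapitation (SE 0.22, adjusted p = 0.00024) and by 2.41 with NPA (SE 0.22, adjusted p = 7e-07). With IAA it fell against decapitated plants by 0.85 (SE 0.22, adjusted p = 0.010), a call lost without IAA replicate 3 (0.060). With NPA it was higher than in decapitated plants by 1.07 (SE 0.22, adjusted p = 0.019). That call was lost in 3 of 6 fits with 1 array left out (up to 0.068). UGT74D1, another auxin glucosyltransferase, rose by 1.22 after decapitation (SE 0.43, adjusted p = 0.047), a call lost without decapitated replicate 1 (0.17) or 2 (0.088) or intact replicate 2 (0.062) or 3 (0.17). With the replicate block UGT74D1 was called after decapitation (adjusted p = 6.4e-06), with NPA against intact plants (0.88, adjusted p = 0.00012, against 0.14 without the block) and with IAA against decapitated plants (-0.99, adjusted p = 5.7e-05, against 0.10). UGT84B1 averaged 2.24 with NPA and 2.16 in intact plants, near background, where a difference of 0.07 ± 0.02 was called (adjusted p = 0.023) and lost without any of 4 single arrays (up to 0.095). The median of the 3 genes was 1.22 after decapitation and 0.88 with NPA, against 0.03 and 0.04 over all probe sets. None of the 3 was called in a mutant, against 2.02% to 3.74% of all probe sets in the single mutants, shares too small for this to set the 3 genes apart. Thus the glucosyltransferase gene IAGLU and GH3.9 rose, and WES1 fell, in the same comparisons.

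Of 18 genes of auxin synthesis, YUC2, YUC4 and YUC6, flavin monooxygenases of the last step, could be followed, and all stayed between 1.69 and 2.60 in every group mean. YUC4 was called at differences of -0.08 with IAA against decapitated plants and 0.09 with NPA against intact plants, on means of 2.13 to 2.25. Single arrays decided both calls (adjusted p up to 0.21 and 0.12). None of the 19 listed auxin receptor and response factor genes could be named.

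Among 29 Aux/IAA repressor genes, which are early auxin targets like the GH3 genes, 7 could be followed. Of these 2 rose with IAA against decapitated plants, where 11.0% of all probe sets rose. The median of the 7 was 0.21, against -0.04 over all probe sets. That median is the value of IAA20, which averaged 2.49 in decapitated plants and ran from 2.40 to 3.31 with IAA, and was not called. IAA30 changed by 5.79 ± 0.23 and IAA29 by 4.77 ± 0.12. IAA30 and IAA18 fell after decapitation (-3.51 ± 0.23 and -1.69 ± 0.38), and IAA30 fell with NPA (-3.76 ± 0.23), so that IAA30 moved as WES1 did in these comparisons while IAA29, like GH3.1, left its low level only with IAA. None of the 7 was called in a mutant, against 2.02% to 3.74% of all probe sets in the single mutants. With shares this small, no call among 7 genes does not set the list apart. IAA20, IAA29, IAA31, IAA33 and IAA34 also had means of 2.01 to 2.65 in intact plants and the mutants. These lie near background, where a fall could not show. HAT2, an auxin-induced transcription factor gene, changed by 7.21 ± 0.35 with IAA, -4.65 ± 0.35 after decapitation and -7.01 ± 0.35 with NPA. It was also lower with NPA than in decapitated plants (-2.35 ± 0.35, adjusted p = 0.0026), a call lost in a fit of only those groups (0.15).

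WAG2, which encodes a kinase that directs auxin transport, was the 1 gene of 19 in the transport list that could be followed. Of the 20 listed genes it was the only one called in a mutant. Of all probe sets 3.74% were called in max1, 3.12% in max2, 2.02% in max3 and 5.28% in the mean of the mutants. WAG2 was higher in max3 by 2.89 (SE 0.38, adjusted p = 0.00098), in max1 by 1.73 (SE 0.38, adjusted p = 0.018) and in the mean of the mutants by 2.01 (SE 0.31, adjusted p = 0.0012). The call in max1 was lost without intact replicate 1 (0.057) or 2 (0.059) or max1 replicate 3 (0.078). In max2 it stood at 1.42 above intact plants (adjusted p = 0.057) and was called with the replicate block (adjusted p = 0.019). With IAA it rose by 4.58 against decapitated plants. Its falls after decapitation and with NPA, by 1.07 and 1.06, did not survive removal of any single array among the 6 (adjusted p of 0.085 to 0.12 and 0.089 to 0.10). Those fits had no block, and with the replicate block and all arrays both falls were called (adjusted p = 0.018 and 0.019). Of 16 other early auxin response genes 4 could be followed. HAT2, LBD16 and LBD29 rose with IAA against decapitated plants, where 11.0% of all probe sets rose, at a list median of 3.91. XTH19, a cell wall enzyme gene, was called there with the replicate block (2.04, adjusted p = 0.012, against 0.074 without it). LBD16 and LBD29, which act in lateral root founder cells, changed by 5.77 and 0.95, the second call being lost without IAA replicate 1 or 2 (up to 0.064). Against intact plants IAA29, IAA30, WAG2, HAT2 and LBD16 were higher with IAA by 4.78, 2.29, 3.51, 2.55 and 5.80. XTH19 (2.73, adjusted p = 0.044) and LBD29 (0.96, adjusted p = 0.028) were also called higher there. Both of these calls were lost in 5 of 6 fits with 1 array left out (up to 0.19 and 0.12).

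**Figure D5:**
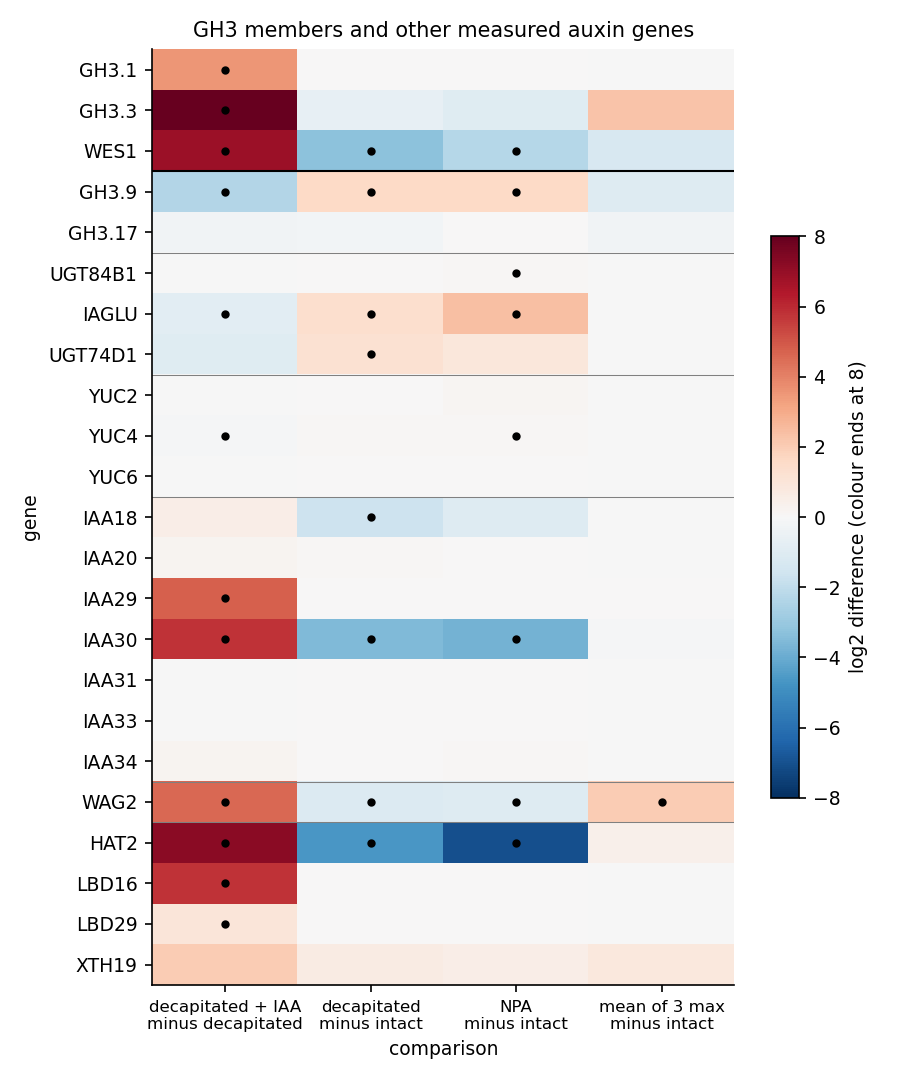
Log2 difference (colour, ending at 8) of the 3 members, above the black line, and of 20 other measured auxin genes in 4 comparisons (columns), with a dot where the adjusted p was below 0.05; thin lines separate the gene lists. The IAA column is most positive for the 3 members, IAA29, IAA30, WAG2, HAT2 and LBD16. It is less so for XTH19, LBD29, IAA18, IAA20 and IAA34, of which only LBD29 was called. GH3.9 and IAGLU have the opposite sign to WES1 in the first 3 columns.

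The genes whose values were most like those of each member were taken by Pearson correlation over the 21 arrays, among 1074 probe sets with 1 named gene and a highest group mean of at least 5. These correlations are descriptions, and the IAA arrays, which stand apart, enter all of them. GH3.1 was closest to IAA29 (r = 0.998), LBD16 (0.995), the xyloglucan enzyme gene XTH20 (0.99), the lateral root factor gene PUCHI (0.97) and the acid phosphatase gene PAP20 (0.94). GH3.3 was closest to the pectin methylesterase gene PME61 (0.94), WAG2 (0.86), IAA29 (0.86), LEP (0.86) and XTH20 (0.85). WES1 was closest to PR-1-LIKE (0.86), IAA29 (0.83), CLE44 (0.83), XTH20 (0.82) and LBD16 (0.82).

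Over the 18 arrays without IAA the neighbours changed. GH3.3 was then closest to the sulfite reductase gene SIR (0.91), the methionine sulfoxide reductase gene MSRB5 (0.90), WAG2 (0.89), PME61 (0.89) and the pectin methylesterase gene ATPMEPCRD (0.85). ATPMEPCRD averaged 5.34 in max1, 4.15 in max2 and 6.71 in max3, against 2.51 in intact plants, and PME61 averaged 5.34, 4.21 and 4.96, against 4.19. WES1 was closest to SETH3 (0.84), the ERF/AP2 factor gene tny (0.82), DRT100 (0.82), ATBRXL2 (0.79) and the endoglucanase gene GH9B8 (0.79). GH3.1 stayed between 2.02 and 2.12 in these arrays, so its correlations there are over values at the low level, and the closest gene was LBD16 (0.93), which was also near 2.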

How the data were processed

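The deposited table holds 1 value per probe set and array. Per the submitters' processing notes RMA, GCRMA and R 3.2.2 were used, and the sources used here do not say for which step. The authors' deposited values lie between 1.03 and 15.7 and were read as log2 because these tools return log2 values, and they were used without further scaling. Scanner files were not used here, so the scale and centring could not be set against them.

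Of 22810 probe sets 64 controls were left out. The probe table named 1 gene for 13513, several for 503 and none for 8730, and names were checked by gene identifier against a TAIR10.1 gene table, with 13436 found. Sequences were not used here.

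All 21 arrays entered 1 limma fit (version 3.58.1, R 4.3.3) with a mean per group. Residual degrees of freedom were 14, and the prior added 1.03. P-values were adjusted by the Benjamini-Hochberg method over 22746 probe sets within each comparison, and a call needed an adjusted p below 0.05. The fit was tested on simulated data with independent noise in each array and differences planted in max3. These data held no effect shared by a replicate number, so they cannot speak to calls that depend on it. The members and lists were chosen with earlier results of these data known. From each list the text names up to 4 called genes with the largest difference per comparison. Where no gene of a list was called, up to 2 with the smallest p are named in some comparisons only. Of 127 listed loci 3 were left out because the tables give them no gene name, and 20 besides the members were measured, each by 1 probe set.

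The labels say that treatments of a replicate were done together, which pairs the arrays. Deviations from group means had a median correlation of 0.36 where arrays shared a number, with 0.43, 0.13 and 0.40 in numbers 1, 2 and 3, and of -0.12 where they did not. Alternatives were array quality weights, the replicate block, a robust fit with an intensity trend, restriction to probe sets that name 1 gene, to probe sets with a group mean of 5 or more or to the groups of a comparison, centring on array medians, another quantile normalization, and omission of each array. With 3 arrays per group the precision is limited. Figures were drawn with matplotlib 3.10.9.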

Additional observations from a re-analysis of the deposited data

How the results depend on the processing

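Over 216 values of the members under alternatives other than leaving out an array, 206 kept their direction and their side of the threshold and none reversed. The 10 others were GH3.3 in the mutants and WES1 in max2. GH3.3 in max1 (2.91) passed with the replicate block (adjusted p = 0.0059) and without dim probe sets (0.037). In max3 (3.45) it did not pass with only the groups compared (0.20), with probe sets restricted to those naming 1 gene (0.059) or a second quantile normalization (3.42, 0.056). In the mean of the mutants (2.28) it passed with the block (0.0061), without dim probe sets (0.037) and with array quality weights (2.37, 0.026). WES1 in max2 (-2.18) did not pass with only the groups compared (0.33) or the named probe sets (0.053). In max2 against max1 and max3, GH3.3 (-2.71) passed with the block (0.033). Smaller fits have fewer arrays or probe sets, and otherwise the cause was not tested. In the 9 comparisons the block changed no other call of a member. Over all pairs of groups it also called GH3.3 in max2 against max3.

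With 1 array left out, 168 of 180 values kept their side, and GH3.3 ranged from 2.15 to 3.64 in max1, 2.69 to 4.10 in max3 and 1.86 to 2.75 in the mean of the mutants, and WES1 from -2.66 to -1.54 in max2, with and without the block. Subtracting array medians shifted all probe sets by 0.11 after decapitation and 0.13 with NPA, and turned the called splits to 8909 higher and 2781 lower and to 10056 higher and 2849 lower, against 2914 and 3037, and 3165 and 3163. No member changed direction in a called comparison. The order of the means differed under 2 scalings only for NPA and max2 of WES1 and among the low values of GH3.1. Each listed gene had 1 probe set, so averaging probe sets changed nothing.

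The number of probe sets called moved by over 1.5 times in some settings. Fits with named probe sets tested 13513 probe sets, the fit without dim probe sets fewer than 22746, and the other fits 22746. Their counts are thus out of different totals. The number called was 5951 for decapitation, and 11690 with medians subtracted and 3085 with named probe sets. For NPA it was 6328, 12905 and 3424 in the same order, and for IAA against decapitation 5205 and, with named probe sets, 2707. For IAA against intact it was 1971, and 2962 with the block, 900 with only the groups compared, 924 with named probe sets and 1230 to 1847 with an array left out. For NPA against decapitation it was 535, and 1068 with the block, 256 with array weights, 226 with named probe sets, 270 to 518 with an array left out and 0 in limma with only those groups. For max1 it was 851, and with the block, weights, named probe sets and only those groups 1418, 2164, 413 and 198. For max2 it was 710, and 1169, 1152, 330 and 106. For max3 it was 459, and 971, 1526, 182 and 123. For the mean of the mutants it was 1200, and 2010, 2426 and 561 without the last. With an array left out these ranged from 499 to 639, 450 to 625, 217 to 306 and 719 to 1295.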

Other observations

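Among the genes that followed GH3.3 over the 18 arrays without IAA, several had high means in all groups. SIR averaged 11.92 in max1, 11.45 in max2 and 11.83 in max3, against 11.05 in intact plants, and MSRB5 averaged 11.20, 11.00 and 11.84, against 10.04. By Spearman correlation over the same arrays the glutathione transferase gene GSTU20 (0.86) and the glucosinolate transporter gene GTR1 (0.86) were also among the 5 closest. GTR1 averaged 11.22, 10.85 and 11.41 in max1, max2 and max3, against 10.49 in intact plants. With IAA, SIR and MSRB5 averaged 10.81 and 10.04, while GH3.3 had its highest values there. These genes were selected by their likeness to GH3.3, so their values are a description.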
